A study of Mus musculus with 18 samples.

Results

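*Scara5* and 9 further genes that take up, move, store, export or sense iron in the cell were followed in brown preadipocytes treated with FGF6. The 10 genes were found in a count table of 48023 genes by matching their Ensembl identifiers to the GENCODE annotation of the mouse genome GRCm38. All 10 had enough reads to be among the 15071 genes tested. *Scara5* was chosen for its fall under FGF6 in these same libraries, so its values are given as a description and without a test. The cells were an immortalized line raised from stromal vascular cells of murine brown fat, kept as undifferentiated preadipocytes in medium with serum. They received vehicle (Veh) or FGF6, a paracrine fibroblast growth factor, at 200 ng/ml, and RNA was taken after 4, 8 or 24 h. Each of the 6 groups had 3 libraries, 18 in all, and all came from this one immortalized line. No source states that the 3 libraries of a group were separate cultures, so p-values measure only the spread between these libraries, which may be technical.

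Most iron enters cells bound to transferrin. The transferrin receptor, encoded by *Tfrc*, carries it into endosomes, where the reductase STEAP3 turns ferric into ferrous iron and the transporter DMT1, encoded by *Slc11a2*, moves it into the cytosol. SCARA5, a class A scavenger receptor, binds ferritin and offers a route that does not need transferrin, and ZIP14, encoded by *Slc39a14*, takes up iron that is not bound to transferrin, along with zinc and manganese. Iron in excess is stored in ferritin, a shell of heavy chains (*Fth1*) and light chains (*Ftl1*), is freed from it through the autophagy receptor NCOA4, and leaves the cell through ferroportin (*Slc40a1*). The RNA-binding protein IRP2, encoded by *Ireb2*, accumulates when iron is scarce and binds iron-responsive elements, short hairpins in the untranslated regions of several of these transcripts. There it blocks translation from the 5′ side or stabilises the transcript from the 3′ side.

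Library totals lay between 24327816 and 33471980 counts, and 3 counts corresponded to 0.0905 to 0.126 CPM, that is counts scaled to the normalised library total. FGF6 was compared with vehicle by edgeR's quasi-likelihood test, and a gene was called at an adjusted p (Benjamini-Hochberg over all genes tested) below 0.05. Most of the transcriptome differed at this threshold. Among all genes tested, 62.8% were called at 4 h, 70.8% at 8 h and 73.8% at 24 h, so a call by itself says little about a gene of this group, and the sizes are the values to read. Median log2 fold changes over all genes were −0.05, −0.05 and −0.02, and −0.15, −0.11 and −0.03 with library sizes alone in place of normalisation factors. Vehicle 24 h library 3 stood apart from its partners, with a chi-square per degree of freedom of 34.5 and 37.6 against them, where the 16 other pairs of libraries within a group lay between 2.34 and 7.05. Of the value against library 1, 85.7% came from 10 features, led by the ribosomal RNA *CT010467.1* with 251704 counts in library 3 against 4232 and 4680 in the others, and without those 10 the value was 4.65. Leaving this library out, 71.8% of genes were called at 24 h, the value of *Scara5* was −7.89 against −7.93 with it, and of the other members *Ncoa4* alone changed its call among the 24 h comparisons.

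Markers of the labelled cell type were checked first. Of 8 preadipocyte and stromal markers, *Dlk1* was at 0 in every library and the other 7 were tested. Their summed level was between 3240 and 4830 CPM in the vehicle libraries of the 3 time points. With FGF6 it was between 2030 and 2150 CPM at 4 h, 2260 and 2460 CPM at 8 h, and 767 and 825 CPM at 24 h. *Col1a1* made up most of this sum, with means of 3106.8 CPM in vehicle and 443.3 CPM with FGF6 at 24 h. At 24 h, *Pdgfra*, *Pdgfrb*, *Ly6a*, *Ebf2*, *Zfp423* and *Col1a1* were lower with FGF6 and *Cd34* was higher. *Lep* was at 0 throughout, *Adipoq* and *Plin1* were at 0 with FGF6 at 24 h, and *Ucp1* was at 0 except with FGF6 at 24 h (0.739 ± 0.158 CPM, SD, n = 3). *Fabp4* averaged between 66.9 and 160.1 CPM over the groups, and *Cidec* averaged 4.32 CPM in vehicle and 0.168 CPM with FGF6 at 24 h. Among macrophage markers, *Ptprc*, *Adgre1* and *Cd163* had between 0 and 4 counts in any library, and the summed level with *Csf1r*, *Cd68* and *Lyz2* ran from 3.36 CPM with FGF6 at 24 h to 19.1 CPM with FGF6 at 4 h. Endothelial markers (*Pecam1*, *Cdh5*, *Tek*) summed to between 0.14 and 0.462 CPM in vehicle and between 2.9 and 4.3 CPM with FGF6 at 24 h. *Cdh5* made up most of that, with 0, 3 and 2 reads in vehicle and 114, 104 and 79 with FGF6, while *Tek* was at 0 and *Pecam1* had at most 4 reads with FGF6. Hepatocyte markers (*Alb*, *Hamp*, *Ttr*) summed to at most 0.134 CPM. The stromal, adipocyte and macrophage markers and *Cdh5* differed with the treatment, as the iron genes did, and their part in the results below was not tested. In bulk RNA, fewer cells with a transcript and less of it in each cell cannot be told apart.

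The hairpins that IRP2 is known to bind were located in the reference transcripts, because several members are known to carry them. The search took a C, a run of 5 bases, the loop CAGTGN and a second run of 5 bases able to pair with the first (G with T allowed), on the sense strand and in the untranslated regions (UTRs) of protein-coding transcripts of GENCODE M21 on GRCm38. Each match is shown 5′ to 3′ as DNA with 5 flanking bases on each side, and capitals mark the loop. *Fth1*, *Ftl1* and *Slc40a1* each held 1 match in the 5′ UTR.
Fth1 5′ UTR, chr19:9982733-9982759, plus strand: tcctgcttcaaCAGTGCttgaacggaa
Ftl1 5′ UTR, chr7:45459780-45459806, minus strand: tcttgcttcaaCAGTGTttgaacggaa
Slc40a1 5′ UTR, chr1:45925466-45925492, minus strand: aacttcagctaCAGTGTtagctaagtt

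*Tfrc* held 4 matches, all in the 3′ UTR, in stretches that start between bases 3316 and 3807 of a transcript of 4890 bases.
Tfrc 3′ UTR match 1, chr16:32631220-32631246, plus strand: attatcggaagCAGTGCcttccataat
Tfrc 3′ UTR match 2, chr16:32631599-32631625, plus strand: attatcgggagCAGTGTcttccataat
Tfrc 3′ UTR match 3, chr16:32631664-32631690, plus strand: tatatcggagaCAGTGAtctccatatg
Tfrc 3′ UTR match 4, chr16:32631711-32631737, plus strand: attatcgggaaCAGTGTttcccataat

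The *Fth1* and *Ftl1* stretches shared 25 of 27 bases, whereas the *Slc40a1* stretch shared 13 of 27 with either of them. Within *Tfrc*, matches 1 and 2 shared 25 of 27 bases and match 3 shared 17 or 18 with the others. Such matches occurred in the 5′ UTR of 31 of 21594 genes (0.144%) and in the 3′ UTR of 127 (0.588%). The members were chosen as iron genes, and several are known to carry the hairpin, so these shares are background and not a test. The other 6 members had no match by this rule. It passes over hairpins whose runs do not pair at every base, so these members may still carry one. A match is a description of the sequence and not a measured binding site.

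**Figure D1:**
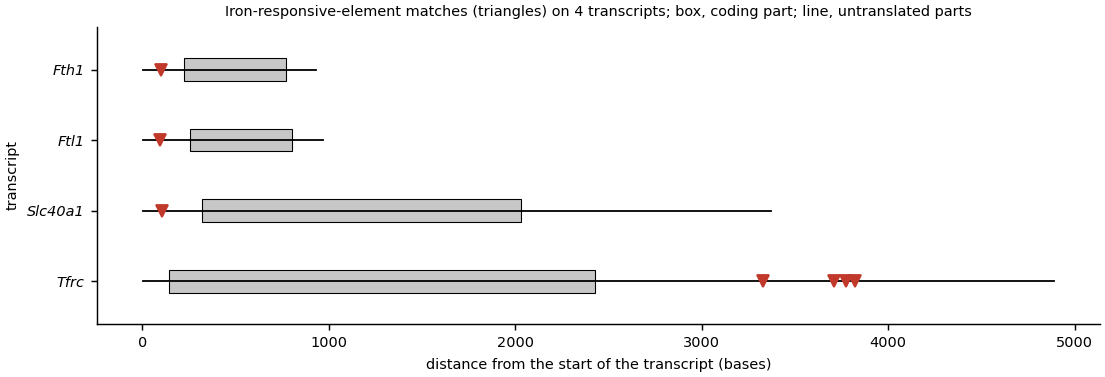
Positions of the matches (triangles) on 4 reference transcripts, drawn to scale from the transcript start in bases, with the coding part as a box and the UTRs as a line. *Fth1*, *Ftl1* and *Slc40a1* carry 1 match each before the coding part, and *Tfrc* carries 4 after it.

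*Scara5* (ENSMUSG00000022032, chr14:65666403-65764826, plus strand) fell to a handful of reads under FGF6 while it rose with time under vehicle. At 4 h, the 3 vehicle libraries held 5.45, 6.03 and 5.94 CPM and the 3 FGF6 libraries 1.11, 1.05 and 1.22 CPM. At 8 h, vehicle held 7.17, 8.74 and 8.39 CPM and FGF6 held 0.0651, 0.202 and 0.247 CPM, the latter from 2, 6 and 6 reads. At 24 h, vehicle held 17.9, 18.7 and 19.8 CPM, from 511, 620 and 470 reads, and FGF6 held 0.0365, 0.0357 and 0.147 CPM, from 1, 1 and 4 reads. Every FGF6 library lay below every vehicle library of its time, and the gap between the arms widened. The fitted log2 fold changes were −2.37 (SE 0.16), −5.58 (SE 0.22) and −7.93 (SE 0.22). These SEs are rescaled from the F statistic. At 8 and 24 h, with few FGF6 reads, they understate the error of the size. From the pooled reads, the level was 5.19 times lower at 4 h (95% counting interval 4.15 to 6.53), 49.0 times lower at 8 h (29.0 to 90.1) and 258 times lower at 24 h (118 to 704). These intervals cover counting error only, and the widest belongs to the time with the fewest reads. The fitted value at 24 h rests on single libraries. It became −8.85 without FGF6 library 3, −7.61 without library 1 and −7.6 without library 2.

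Vehicle alone accounted for part of the widening gap. Its *Scara5* level rose from 5.81 ± 0.313 CPM (SD, n = 3) at 4 h to 8.1 ± 0.827 CPM at 8 h and 18.8 ± 0.933 CPM at 24 h, a log2 difference of 0.48 between 4 and 8 h and of 1.21 between 8 and 24 h. With FGF6 the mean was 1.13 ± 0.0849, 0.171 ± 0.0945 and 0.073 ± 0.0639 CPM, the last at or below 3 counts in 2 of the 3 libraries. The FGF6 libraries of 8 and 24 h overlapped, so a further fall between these times is not resolved. Of the 15071 genes, 123 had a lower log2 fold change than *Scara5* at 4 h, 13 at 8 h and 7 at 24 h.

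**Figure D2:**
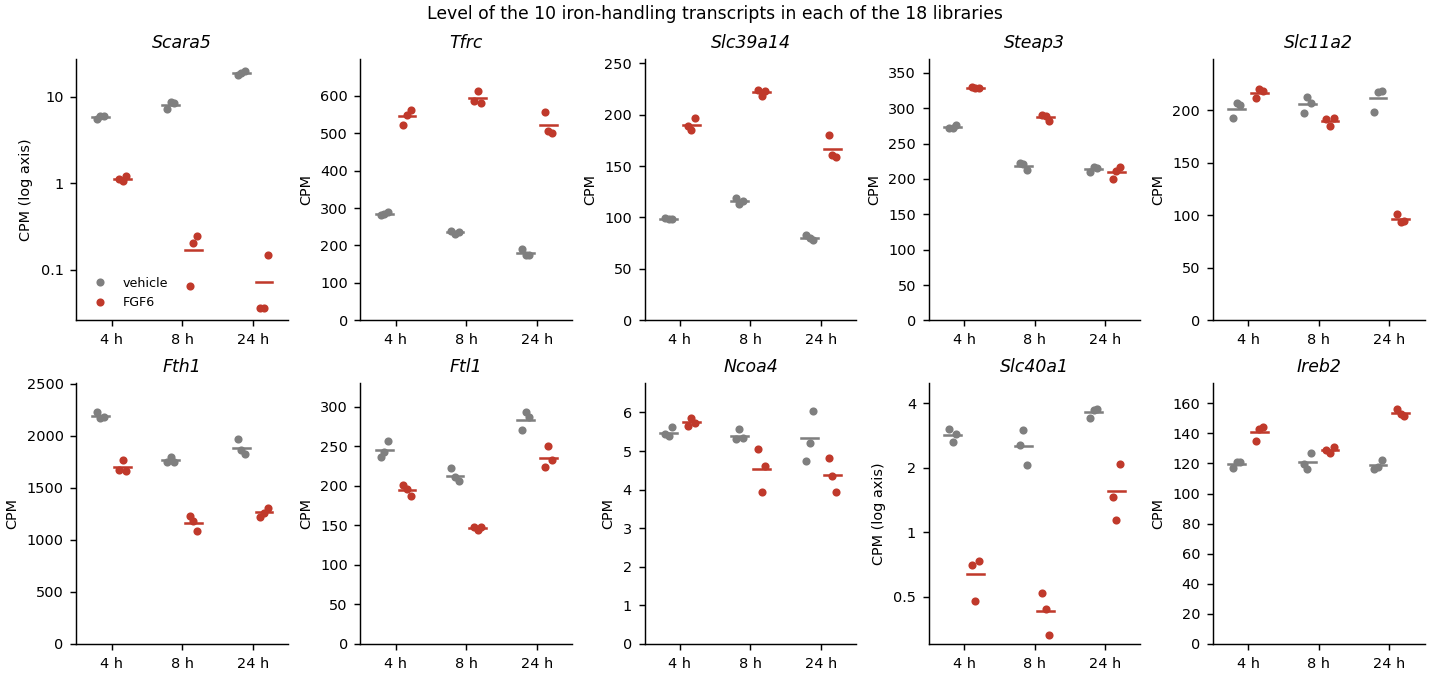
Level in CPM of each of the 10 genes in all 18 libraries, with points for libraries, short lines for the mean of 3, grey for vehicle and red for FGF6, at 4, 8 and 24 h. The axes of *Scara5* and *Slc40a1* are logarithmic and the others start at 0; *Scara5* separates from 5.81 against 1.13 CPM at 4 h to 18.8 against 0.073 CPM at 24 h, and *Tfrc* stays above 499 CPM with FGF6.

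Apart from *Scara5*, 8 of the other 9 members were called at 4 h (5 higher and 3 lower, against 62.8% of all genes), 9 at 8 h (4 higher and 5 lower, against 70.8%) and 8 at 24 h (3 higher and 5 lower, against 73.8%). Only *Slc40a1* at 4 h, *Tfrc* and *Slc40a1* at 8 h, and *Tfrc*, *Slc39a14*, *Slc11a2* and *Slc40a1* at 24 h also reached 2-fold, a size that 11.3%, 18.3% and 22.8% of all genes reached with a call. The libraries of FGF6 and vehicle did not overlap for 9 of the 9 at 4 h (66.2% of all genes), 9 at 8 h (73.8%) and 7 at 24 h (74.8%), as the plot of levels in each library shows.

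*Tfrc* (ENSMUSG00000022797, chr16:32608920-32632794, plus strand), the transferrin receptor, was higher with FGF6 at every time. Vehicle held 280.7, 283.1 and 288.7 CPM at 4 h, 237.6, 231.8 and 236.0 CPM at 8 h, and 190.2, 173.9 and 174.7 CPM at 24 h. FGF6 held 522.1, 548.0 and 563.0 CPM at 4 h, 586.7, 612.3 and 580.5 CPM at 8 h, and 557.4, 506.0 and 499.5 CPM at 24 h. The groups were far apart, and the lowest FGF6 library of any time exceeded the highest vehicle library of any time. The log2 fold change was 0.94 (SE 0.04; edgeR adjusted p = 2.98e-16) at 4 h, 1.33 (SE 0.04; adjusted p = 1.4e-19) at 8 h and 1.54 (SE 0.04; adjusted p = 5.7e-21) at 24 h. The effect grew between 4 and 8 h (difference in log2 fold change 0.40, SE 0.06, edgeR adjusted p = 8.22e-06) and between 8 and 24 h (0.20, SE 0.06, adjusted p = 0.00596), the latter not called without FGF6 24 h library 1 (0.13, adjusted p = 0.0571). Over the same intervals the vehicle level fell, by 0.27 and by 0.39 on the log2 scale (edgeR adjusted p = 5.45e-06 and 2.42e-08), and the FGF6 mean was 544.4, 593.1 and 521.0 CPM.

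*Slc39a14* (ENSMUSG00000022094, chr14:70303469-70351425, minus strand), the ZIP14 transporter, rose by a similar factor at each time. Vehicle held 99.8, 98.4 and 98.8 CPM at 4 h, 118.5, 113.0 and 116.5 CPM at 8 h, and 82.8, 80.5 and 77.9 CPM at 24 h. FGF6 held 188.9, 184.9 and 196.5 CPM at 4 h, 223.6, 218.0 and 223.0 CPM at 8 h, and 180.0, 161.0 and 158.7 CPM at 24 h. No libraries overlapped at any time. FGF6 shifted the log2 level by 0.94, 0.93 and 1.05 (SE 0.04 each; edgeR adjusted p = 1.6e-16, 8.2e-17 and 8.64e-18). No change of the effect was called between 4 and 8 h (−0.01, SE 0.06, edgeR adjusted p = 0.948) or between 8 and 24 h (0.12, SE 0.06, adjusted p = 0.098), although the latter was called with library sizes alone (0.17, adjusted p = 0.021). Its vehicle level rose by a log2 value of 0.23 between 4 and 8 h and fell by 0.53 between 8 and 24 h (edgeR adjusted p = 4.66e-05 and 9.46e-11), so the level in both arms followed time while the ratio stayed near 2.

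*Slc11a2* (ENSMUSG00000023030, chr15:100387898-100425072, minus strand), which encodes DMT1, was lower late. At 24 h, vehicle held 198.1, 217.4 and 218.5 CPM and FGF6 held 101.5, 94.0 and 94.8 CPM. The FGF6 libraries of that time stood at less than any other group of the series, where values lay between 185.1 and 219.8 CPM. On the log2 scale the fold change was −1.13 (SE 0.04, edgeR adjusted p = 3.86e-18). At 4 h it was 0.10 (adjusted p = 0.0277) and at 8 h −0.12 (adjusted p = 0.0136), both small and both lost under other choices: with library sizes alone the 4 h value was 0.00 (adjusted p = 0.942), and with DESeq2 the 8 h value was −0.08 (adjusted p = 0.0766). The effect shifted down by 0.22 between 4 and 8 h and by 1.01 between 8 and 24 h (edgeR adjusted p for the difference 0.00453 and 2.91e-13), while no change was called in vehicle (0.03 and 0.04, adjusted p = 0.585 and 0.466). Of its exonic bases, 402 are shared with *Gm5475* on the opposite strand, which had between 0 and 7 counts in any library.

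*Steap3* (ENSMUSG00000026389, chr1:120190757-120272705, minus strand), the endosomal ferrireductase, was higher early and level with vehicle at 24 h. At 4 h, vehicle held 272.2, 272.1 and 276.6 CPM and FGF6 329.5, 328.0 and 328.8 CPM. At 8 h, vehicle held 223.3, 220.7 and 212.9 CPM and FGF6 290.7, 289.6 and 281.8 CPM. At 24 h the groups overlapped, with 209.7, 216.7 and 216.2 CPM in vehicle and 199.4, 211.9 and 217.5 CPM with FGF6. The log2 fold change was 0.26 (SE 0.03, edgeR adjusted p = 8.53e-08), 0.39 (SE 0.03, adjusted p = 5.43e-11) and −0.03 (SE 0.03, adjusted p = 0.395). The effect was larger at 8 h than at 4 h by 0.13 (edgeR adjusted p = 0.0352), a call that was lost in 10 of 18 fits that left out 1 library (highest adjusted p = 0.0976), and smaller at 24 h than at 8 h by a log2 difference of −0.42 (edgeR adjusted p = 3.29e-08). Vehicle fell by 0.32 between 4 and 8 h (adjusted p = 1.1e-08).

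The ferritin chains fell together. *Fth1* (ENSMUSG00000024661, chr19:9980598-9985098, plus strand), which carries the ferroxidase site, held 2226.6, 2175.2 and 2184.0 CPM in vehicle and 1675.9, 1764.1 and 1662.1 CPM with FGF6 at 4 h. At 8 h it held 1752.2, 1801.6 and 1752.6 against 1226.8, 1182.0 and 1088.9 CPM, and at 24 h 1966.9, 1864.4 and 1824.7 against 1222.6, 1262.8 and 1310.5 CPM. All FGF6 libraries lay below all vehicle libraries of their time. On the log2 scale the fold change was −0.37, −0.60 and −0.58 (SE 0.04 each; edgeR adjusted p = 1.72e-09, 8.9e-14 and 1.57e-13). The effect deepened by 0.23 on the log2 scale from 4 to 8 h (a difference of −0.23, adjusted p = 0.000895), and no further change was called at 24 h (0.03, adjusted p = 0.716).

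*Ftl1* (ENSMUSG00000050708, chr7:45457944-45459884, minus strand), the light chain on which the iron core forms, held 236.0, 243.3 and 256.8 CPM in vehicle and 200.9, 195.6 and 187.3 CPM with FGF6 at 4 h. At 8 h the values were 222.2, 210.9 and 205.7 against 147.9, 143.9 and 148.3 CPM, and at 24 h 270.4, 292.9 and 287.0 against 224.3, 250.0 and 232.3 CPM. The groups did not overlap. The log2 fold change was −0.33, −0.54 and −0.27 (SE 0.04 each; edgeR adjusted p = 1.78e-07, 2.95e-11 and 3.39e-06), lower at 8 h than at 4 h by a difference of −0.20 (adjusted p = 0.0118) and recovering by 0.27 at 24 h (adjusted p = 0.000624). In vehicle, *Ftl1* fell by 0.20 between 4 and 8 h and rose by 0.41 to 24 h (edgeR adjusted p = 0.000296 and 1.28e-08), and *Fth1* fell by 0.31 and rose by 0.09 (adjusted p = 9.4e-08 and 0.0349). Of the exonic bases of *Ftl1*, 464 are shared with *Gm22133* and *Gm10252*, of which *Gm22133* was at 0 in all libraries. Reads of near-identical ferritin copies could be split between loci, since the treatment of such reads is not stated. In the table, *Ftl1-ps2* reached 10 counts in a library, *Ftl2-ps* 7, and *Fth-ps2* and *Ftl1-ps1* 4.

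Within a library, the ratio of *Fth1* to *Ftl1* counts compares the chains directly, free of library scaling. Its log2 value was 3.16 ± 0.07 in vehicle and 3.13 ± 0.06 with FGF6 at 4 h (SD, n = 3; exact two-sided permutation p = 0.5). At 8 h it was 3.06 ± 0.07 and 2.99 ± 0.10 (exact permutation p = 0.5), and at 24 h 2.73 ± 0.11 and 2.43 ± 0.08 (exact permutation p = 0.1). The last 2 groups did not overlap, and 0.1 is the smallest p that 3 libraries against 3 allow, so no ratio here could pass 0.05. The ratio of *Tfrc* to *Fth1*, one transcript of uptake and one of storage, rose by 1.31, 1.94 and 2.11 on the log2 scale at 4, 8 and 24 h. At 24 h its log2 value was −3.37, −3.42 and −3.38 in the vehicle libraries and −1.13, −1.32 and −1.39 in the FGF6 libraries (exact permutation p = 0.1 at each time).

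*Ncoa4* (ENSMUSG00000056234, chr14:32159865-32179855, plus strand), which delivers ferritin to lysosomes, had few counted reads and moved little. At 8 h, vehicle held 5.3, 5.56 and 5.34 CPM and FGF6 5.05, 3.93 and 4.6 CPM. At 24 h, vehicle held 4.73, 5.22 and 6.05 CPM and FGF6 4.81, 4.36 and 3.93 CPM, with overlap. Relative to vehicle, the log2 fold change was 0.07 (SE 0.11, edgeR adjusted p = 0.599) at 4 h, −0.25 (SE 0.11, adjusted p = 0.0488) at 8 h and −0.28 (SE 0.12, adjusted p = 0.0329) at 24 h. Neither later call held under DESeq2 (adjusted p = 0.141 and 0.0759), the 24 h value was −0.18 without vehicle 24 h library 3 (adjusted p = 0.196), and the 8 h call was lost with the replicate number as a block (adjusted p = 0.0548).

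*Slc40a1* (ENSMUSG00000025993, chr1:45908068-45926523, minus strand), which encodes ferroportin, the known exporter of iron, had the lowest log2 fold change of the 9 at 4 and 8 h. At 24 h its −1.22 (SE 0.20) and the −1.13 (SE 0.04) of *Slc11a2* did not differ beyond their errors. At 4 h, vehicle held 3.02, 2.63 and 2.87 CPM and FGF6 0.703, 0.478 and 0.731 CPM. At 8 h, vehicle held 2.56, 2.99 and 2.05 CPM and FGF6 0.521, 0.437 and 0.329 CPM, from 16, 13 and 8 reads. At 24 h, vehicle held 3.4, 3.74 and 3.78 CPM and FGF6 1.46, 1.14 and 2.09 CPM. The FGF6 libraries were below vehicle at all times and closest to it at 24 h. The log2 fold change was −2.17 (SE 0.23, edgeR adjusted p = 1.25e-08), −2.53 (SE 0.25, adjusted p = 2.28e-09) and −1.22 (SE 0.20, adjusted p = 4.4e-06). The effect at 24 h was smaller than at 8 h by 1.31 (SE 0.34, adjusted p = 0.00233), and none was called between 4 and 8 h (−0.37, SE 0.38, adjusted p = 0.516). *Slc40a1* therefore parted from *Scara5*, whose difference from vehicle widened over that interval.

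*Ireb2* (ENSMUSG00000032293, chr9:54863789-54912530, plus strand), which encodes IRP2, was slightly higher. Vehicle held 117.2, 121.1 and 120.8 CPM at 4 h, 119.6, 116.6 and 126.6 CPM at 8 h, and 116.1, 117.8 and 122.3 CPM at 24 h. FGF6 held 134.7, 143.0 and 144.1 CPM at 4 h, 128.9, 126.7 and 130.7 CPM at 8 h, and 155.9, 152.9 and 151.8 CPM at 24 h. The vehicle level was flat, with no change called between times, and the 8 h groups were separated by the smallest margin. Relative to vehicle, the log2 fold change was 0.23 (SE 0.03, edgeR adjusted p = 2.51e-06), 0.09 (SE 0.04, adjusted p = 0.0238) and 0.37 (SE 0.04, adjusted p = 5.87e-10). The 8 h call was lost with library sizes alone (0.03, adjusted p = 0.491) and with upper-quartile factors (0.05, adjusted p = 0.234). The effect fell by 0.14 from 4 to 8 h (edgeR adjusted p = 0.0317) and rose by 0.28 from 8 to 24 h (adjusted p = 4.73e-05). The call of the fall was lost with library sizes alone (edgeR adjusted p = 0.102), without a filter on low counts (0.0802) and with fewer time points (0.0754). It was also lost in 6 of 18 fits without 1 library.

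**Figure D3:**
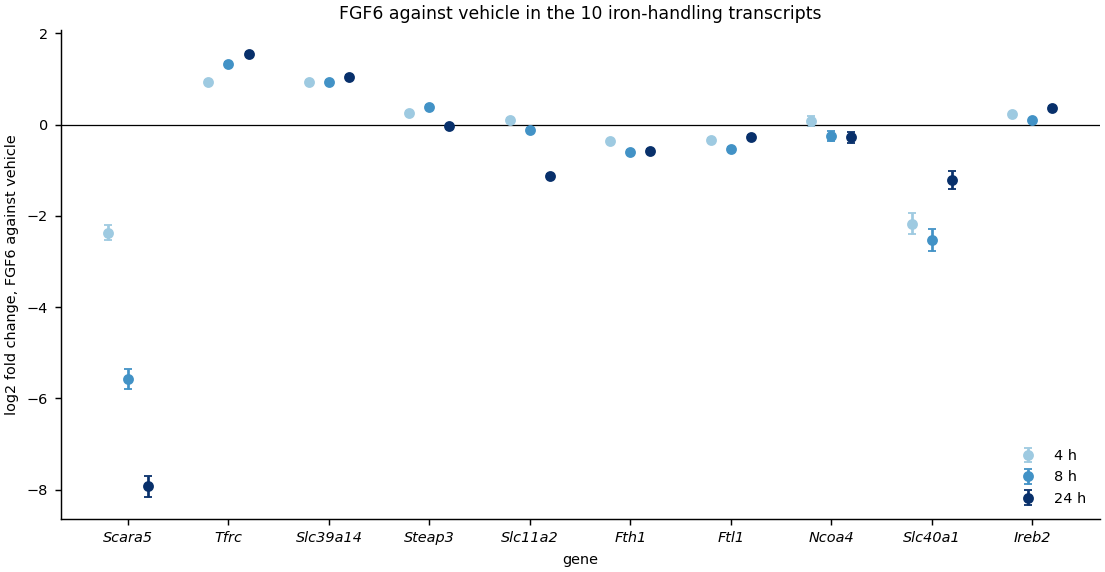
Log2 fold change of FGF6 against vehicle for the 10 genes at 4, 8 and 24 h (light to dark), with bars for 1 standard error of the edgeR fit, which is smaller than the point for most genes. For *Scara5* at 8 and 24 h, with few FGF6 reads, the bars understate the error of the size. *Scara5* runs from −2.37 to −7.93, *Tfrc* from 0.94 to 1.54, and *Slc40a1* returns from −2.53 at 8 h to −1.22 at 24 h.

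Grouped by role, the receptors split, with *Tfrc* up and *Scara5* down at each time. The 2 ferritin chains and the exporter, each with a match in the 5′ UTR, were lower at all 3 times. *Tfrc*, with its matches in the 3′ UTR, was higher at all 3. This order was seen after the values were known, covers members only and is not a test. Members without a match by this rule, which may still carry one, went either way, with *Slc11a2* at −1.13 and *Slc39a14* at 1.05 at 24 h. Genes outside the members that hold such matches were not compared, and a role of the hairpins was not tested. Counting effects that changed with time, 6 of the 9 members other than *Scara5* were called between 4 and 8 h (2 up and 4 down, against 30.6% of all genes, 15.5% up and 15.1% down) and 6 between 8 and 24 h (4 up and 2 down, against 45.1%, 22.6% up and 22.5% down). In vehicle, 5 were called between 4 and 8 h (1 up and 4 down, against 43.0%, 21.2% up and 21.7% down) and 5 between 8 and 24 h (3 up and 2 down, against 49.2%, 25.5% up and 23.7% down), so untreated cells also changed. With library sizes alone the last of these became 2 up and 4 down. A change of 2-fold in the effect was called for 0 of the 9 between 4 and 8 h (3.49% of all genes) and 2 between 8 and 24 h (8.49%), and none of the vehicle changes reached 2-fold (2.26% and 4.48%).

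Levels between genes can be compared only per length. In CPM per kilobase of annotated exon, vehicle cells at 4 h held 633 ± 7.93 of *Fth1*, 183 ± 7.86 of *Ftl1*, 47.9 ± 0.443 of *Steap3*, 45.9 ± 0.667 of *Tfrc*, 31.7 ± 1.22 of *Slc11a2*, 12.6 ± 0.231 of *Ireb2*, 9.39 ± 0.0700 of *Slc39a14*, 0.953 ± 0.0513 of *Scara5*, 0.585 ± 0.0126 of *Ncoa4* and 0.315 ± 0.0218 of *Slc40a1* (SD, n = 3). At 8 h in vehicle, *Steap3* and *Tfrc*, at 38.3 ± 0.947 and 38.0 ± 0.489, did not differ beyond their spread. At 24 h with FGF6, *Tfrc* stood next after the ferritin chains with 84.2 ± 5.13, *Scara5* to last with 0.012 ± 0.0105, and *Ireb2* (16.2 ± 0.22), *Slc39a14* (15.8 ± 1.11) and *Slc11a2* (15.2 ± 0.649) stood side by side, each differing from the next by less than the larger SD. The length counts every annotated exon, retained introns included, so it understates genes with long minor transcripts. The treatment of reads with several positions is not stated, so genes with near-identical copies may be understated too.

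The remaining genes of iron handling came from 4 lists of regulators, transporters, haem genes and iron-sulfur cluster genes, 82 in the table and 72 tested. At 4 h, 20 were higher and 32 lower, at 8 h 25 and 29, and at 24 h 28 and 31, with medians of −0.11, −0.06 and −0.08. With library sizes alone the split leaned further to lower, at 15 higher and 40 lower at 4 h and 23 and 37 at 8 h, and was 28 and 32 at 24 h. The share called at 4 h, 52 of 72, stands beside 62.8% of all genes, and the medians were close to those of all genes. Among 23 tested haem genes, 14 were lower and 2 higher at 4 h, 12 and 3 at 8 h, and 10 and 5 at 24 h, where the whole table had 34.2%, 38.4% and 37.9% lower and 28.6%, 32.4% and 35.9% higher. Of 25 iron-sulfur genes, 7 were higher and 11 lower at 4 h, 11 and 7 at 8 h, and 12 and 10 at 24 h. With library sizes alone their 4 h split was 6 and 15. The transport list had 8 higher and 5 lower of 16 at 4 h, 8 and 7 at 8 h, and 7 of each at 24 h. The 8 regulators split into 3 and 2, 3 and 3, and 4 and 4. Among all genes tested, 62.8%, 70.8% and 73.8% were called at these times. *Tf*, which encodes transferrin, was not analysed here.

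Genes of these lists were named only where they reached 2-fold with a call, so their size follows from that choice. *Steap4*, a plasma-membrane and endosomal metalloreductase of the same family as *Steap3*, held 17.5, 19.2 and 20.7 CPM in vehicle and 4.88, 5.39 and 5.36 CPM with FGF6 at 4 h. At 24 h it held 44.9, 39.0 and 37.1 CPM in vehicle and 1.5, 1.0 and 0.954 CPM with FGF6. It fell apart from vehicle further at each time, as *Scara5* did, with log2 fold changes of −1.88 (SE 0.11), −3.47 (SE 0.12) and −5.13 (SE 0.14; edgeR adjusted p = 2.16e-13, 9.23e-19 and 6.32e-21). *Slc25a37*, mitoferrin-1, which imports iron into mitochondria, held 154.1 ± 9.67 CPM in vehicle and 519.5 ± 6.11 CPM with FGF6 at 4 h, and 83.4 ± 5.65 and 292.8 ± 14.7 CPM at 24 h (SD, n = 3). Its log2 fold change was 1.75, 2.03 and 1.81 (SE 0.05 each; edgeR adjusted p = 9.09e-21, 3.52e-22 and 2.12e-21). *Frrs1*, a ferric-chelate reductase, was up by 1.08, 1.07 and 0.88 (SE 0.04 each; adjusted p = 4.41e-18, 5.23e-18 and 3.76e-16).

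*Lcn2*, a secreted lipocalin that binds siderophore-bound iron, did not differ by call at 4 h (−0.02, adjusted p = 0.834) and was lower later (log2 fold changes −0.92 at 8 h and −3.33 at 24 h, edgeR adjusted p = 3.62e-10 and 5.32e-18), from 51.0 ± 11.2 CPM in vehicle to 5.09 ± 0.429 CPM with FGF6 at 24 h. *Slc22a17*, a receptor for that lipocalin, was lower at all times (−1.20, −1.20 and −1.02, edgeR adjusted p = 2.55e-08, 1.5e-08 and 3.5e-06). Among regulators, *Hfe*, which binds the transferrin receptor, was lower by −0.92, −1.07 and −1.49 (adjusted p = 2.33e-06, 3.16e-07 and 7.04e-10), and *Tmprss6*, a membrane protease of the hepcidin pathway, by −0.82, −1.43 and −2.96 (adjusted p = 8.84e-05, 2.78e-08 and 4.54e-08). In vehicle, *Tmprss6* fell by 2.17 on the log2 scale between 8 and 24 h (edgeR adjusted p = 3.37e-10), to 28, 39 and 24 reads, beside 4, 4 and 3 reads with FGF6 at 24 h. *Neo1*, neogenin, a co-receptor for bone morphogenetic protein signals, went up by 0.12, 0.74 and 1.24 (adjusted p = 0.00365, 8e-16 and 1.47e-20), reaching 535.7 ± 6.94 CPM against 226.7 ± 4.77 CPM. *Erfe*, erythroferrone, was called only at 24 h (1.49, SE 0.27, adjusted p = 1.98e-05), at 1.82 ± 0.0972 against 0.64 ± 0.0497 CPM. *Bmp2*, a growth factor that can raise hepcidin, had at most 3 counts in any vehicle library and 54, 67 and 80 with FGF6 at 24 h, so no fold is given for it.

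From the haem and iron-sulfur lists, 3 genes were named. *Flvcr2*, a transporter first described for haem, was lower by −0.83, −1.75 and −1.76 (edgeR adjusted p = 0.000133, 4.74e-09 and 4.7e-09). *Abcg2*, an exporter of porphyrins and drugs, was lower by −0.27, −0.56 and −1.37 (adjusted p = 0.000331, 6.94e-09 and 1.63e-16), at 23.5 ± 2.12 CPM with FGF6 against 60.7 ± 3.54 CPM in vehicle at 24 h. *Hscb*, a co-chaperone of iron-sulfur cluster transfer, was lower by −0.84, −1.14 and −0.70 (adjusted p = 1.1e-07, 2.66e-10 and 1.35e-07).

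**Figure D4:**
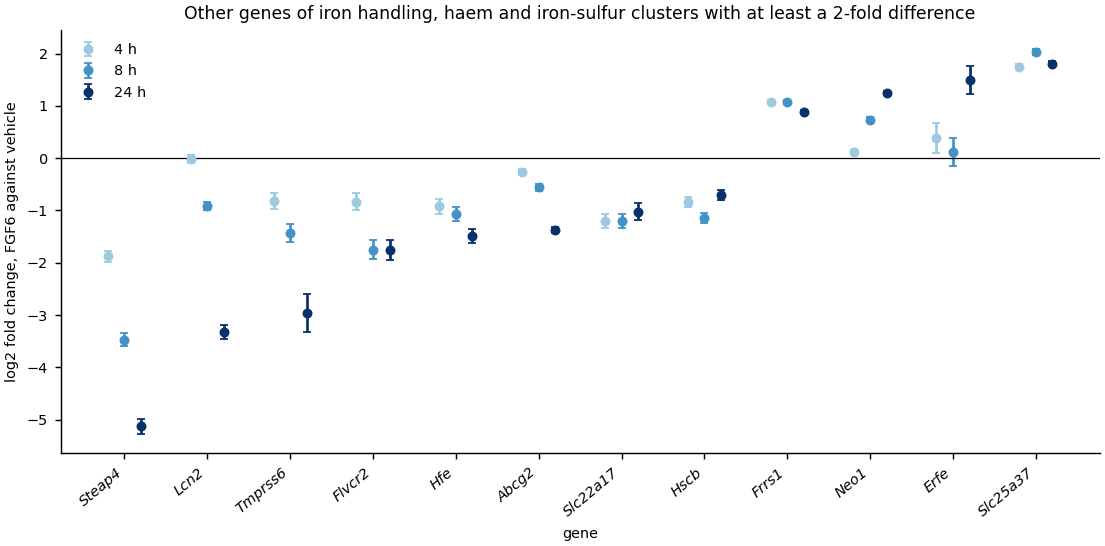
Log2 fold change of FGF6 against vehicle at 4, 8 and 24 h (light to dark) for 12 further iron genes that reached 2-fold at 1 time or more, with bars for 1 standard error, ordered by the value at 24 h. *Steap4* ends lowest at −5.13 and *Slc25a37* highest at 1.81; *Bmp2* is left out because its vehicle libraries held at most 3 counts.

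*Scara5* belongs to the class A scavenger receptors, trimeric surface proteins that bind modified lipoproteins, microbes and other ligands. Its relatives in these cells were *Colec12* and *Scara3*. *Colec12* held 453.0, 484.3 and 510.5 CPM in vehicle and 143.6, 132.0 and 138.4 CPM with FGF6 at 24 h, with log2 fold changes of −0.27, −0.86 and −1.81 (SE 0.05 each; edgeR adjusted p = 2.35e-05, 3.1e-14 and 8.94e-21). *Scara3* held 25.4, 28.9 and 29.0 CPM in vehicle and 20.8, 23.3 and 23.5 CPM with FGF6 at 24 h, and its log2 fold change of −0.46, −0.94 and −0.30 (SE 0.07 each; edgeR adjusted p = 4.2e-06, 1.45e-11 and 0.00022) was deepest at 8 h. *Msr1* and *Marco*, the macrophage members of the class, had at most 1 count in any library. Both tested relatives of *Scara5* were thus lower at each time, by smaller amounts than *Scara5*.

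Of the genes beside *Scara5* on chromosome 14, the nearest was also much lower with FGF6 and the others changed less. *Nuggc*, 17.9 kb away on the lower-coordinate side, had fitted log2 fold changes of −2.13 (SE 0.78), −5.14 (SE 0.75) and −3.29 (SE 0.56; edgeR adjusted p = 0.0209, 1.12e-06 and 9.06e-06). These rest on few reads, with 7, 2 and 7 in vehicle and 1, 2 and 0 with FGF6 at 4 h, 21, 18 and 13 against 1, 0 and 0 at 8 h, and 15, 25 and 14 against 1, 1 and 3 at 24 h, and the 4 h libraries overlapped. *Elp3*, 73.3 kb away, was lower by small amounts (−0.09, −0.19 and −0.15, adjusted p = 0.0292, 4.94e-05 and 0.000618). On the other side, *Pbk*, at 41.0 kb, moved from −0.34 at 4 h to 0.79 at 24 h (adjusted p = 2.62e-07 and 2.96e-15). *Esco2*, at 54.2 kb, was at −1.17, −0.92 and 0.12 (adjusted p = 1.72e-13, 7.31e-13 and 0.0817), and *Ccdc25*, at 72.5 kb, at 0.04, −0.18 and −0.12 (adjusted p = 0.574, 0.00817 and 0.0818). *Pnoc*, 240.9 kb away, had at most 3 counts in any library.

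Across the 18 libraries, the genes whose log2(CPM + 1) most resembled that of *Scara5* were *Pmp22*, a myelin and growth-arrest membrane protein (Pearson r = 0.996), *Pcx*, pyruvate carboxylase (0.9942), *AW551984* (0.9936), *Sept8*, a septin (0.9934), and *Matn2*, a matrix protein (0.9927), of 12299 genes compared. Most opposite were *Hspd1*, the mitochondrial chaperonin (−0.9931), *Cstf2*, an mRNA 3′-end processing factor (−0.9927), *Rpl27*, a ribosomal protein (−0.9922), *Adgra3*, an adhesion receptor (−0.9886), and *Kpnb1*, importin beta (−0.9886). The 18 points fall into 6 groups that share treatment and time, so these values describe a pattern over groups and carry no p. The sizes differed widely, since at 24 h the log2 fold change was −1.62 for *Pmp22* and −4.92 for *AW551984*, from 322.2 ± 31.7 to 10.6 ± 0.361 CPM. Among the members, *Tfrc* stood nearest to a mirror image of *Scara5* (r = −0.974, 18 libraries), followed by *Slc39a14* (−0.928), *Slc40a1* (0.84), *Fth1* (0.80) and *Ireb2* (−0.787), and *Ftl1* (0.666), *Slc11a2* (0.571), *Ncoa4* (0.526) and *Steap3* (−0.371) resembled it least.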

How the data were processed

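The authors sequenced RNA from 18 libraries, aligned reads to GRCm38.p4 with STAR and deposited raw counts per GENCODE gene from Subread featureCounts, without normalization. Versions, annotation release, strand setting and treatment of reads with several positions are not given in the sources used here, and the dose comes from the description of the study's supplementary RNA-seq data. The members and gene lists were chosen with earlier results of these data known.

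Groups came from the labels. Of the table's identifiers, 98.5% matched GENCODE M21, which gave symbols, positions, exon lengths and transcript sequences. Genes were kept by filterByExpr (15071 of 48023), scaled by TMM factors (0.951 to 1.05) and fitted with edgeR 4.0.16 (R 4.3.3) to 6 group means over all libraries. The standard error is the one implied by the F statistic. CPM uses the TMM-scaled total of genes kept. Alternatives were limma 3.58.1 with voom, DESeq2 1.42.0, other scalings and filters, fewer time points, a replicate block, an FDR of 0.25, a 2-fold minimum, and leaving out each library. No 2 libraries of a group agreed within sampling noise (lowest chi-square per degree of freedom 2.34, highest 37.6, with vehicle 24 h library 3).

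Named genes were all members, listed iron genes with an FDR under 0.05, no overlap, 2-fold and 1 CPM at any time, scavenger receptors, markers, the 3 nearest protein-coding neighbours on each side, and the 5 genes most and least like *Scara5*. The result of 1 further marker list is not reported here.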

Additional observations from a re-analysis of the deposited data

Results flagged for a closer look

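The following effects of FGF6 differed between neighbouring time points by edgeR's interaction test at an adjusted p below 0.05. Values are differences in log2 fold change, later minus earlier, and their explanation was not tested. Between 4 and 8 h they were 0.40 for *Tfrc*, 0.13 for *Steap3*, −0.22 for *Slc11a2*, −0.23 for *Fth1*, −0.20 for *Ftl1* and −0.14 for *Ireb2*. Between 8 and 24 h they were 0.20 for *Tfrc*, −0.42 for *Steap3*, −1.01 for *Slc11a2*, 0.27 for *Ftl1*, 1.31 for *Slc40a1* and 0.28 for *Ireb2*. The 0.13 of *Steap3*, the −0.14 of *Ireb2* and the 0.20 of *Tfrc* were not called in 10, 6 and 1 of 18 fits that each left out 1 library. Of all genes tested, 30.6% and 45.1% passed the same test. Each pair of neighbouring comparisons uses the 8 h libraries in common. *Slc11a2* was the one member of the 9 called higher at 1 time (0.10 at 4 h) and lower at another (−1.13 at 24 h).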

How the results depend on the processing

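Each member's log2 fold changes were compared under 8 or 9 of the 10 other settings, without the 2-fold minimum. Of these 264 values, 250 kept their direction and their side of the threshold, or stayed close. The main fit read at an FDR of 0.25 was among these settings, and there a gene called at 0.05 cannot lose its call. With 1 library left out, 499 of 540 values were kept in the same sense. *Tfrc*, *Slc39a14*, *Fth1*, *Ftl1* and *Slc40a1* kept direction and call at all 3 times in every setting that tested them, except the 2-fold minimum. With a 2-fold minimum, the members called (of 9 without *Scara5*) numbered 1 at 4 h, 2 at 8 h and 4 at 24 h. The listed iron genes numbered 5, 11 and 14, where 11.3%, 18.3% and 22.8% of all genes passed. For the changes of effect 0 and 2 members passed, beside 3.49% and 8.49% of all genes. For the vehicle changes 0 and 0 passed, beside 2.26% and 4.48%. With at least 10 counts in every library, 3 members were called between 8 and 24 h in vehicle. The genes most like *Scara5* shared 2 of 5 names over group means, 1 by Spearman correlation and 3 without TMM factors. *Ncoa4* at 4 h turned to −0.03 with library sizes alone. *Ncoa4* at 8 h also lost its call without a filter on low counts (adjusted p = 0.157), with at least 10 counts (0.0598) and with fewer time points (0.111), and at 24 h without a filter (0.0845) and with fewer time points (0.092). *Slc11a2* at 4 h lost it with upper-quartile factors (0.295). The cause was not tested.

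With 1 library left out, members called ranged from 7 to 8, 6 to 9 and 7 to 8 at 4, 8 and 24 h, 4 to 6 and 5 to 6 for the changes of effect, and 5 to 5 and 3 to 5 for the vehicle changes (3 without vehicle 8 h library 3 or vehicle 24 h library 2), and listed iron genes from 45 to 52, 53 to 56 and 57 to 61. The main fit called 62.8%, 70.8% and 73.8% of all genes at 4, 8 and 24 h. *Scara5* ranged from −2.41 to −2.28, −5.89 to −5.16 and −8.85 to −7.6. *Slc11a2* at 4 h lost its call without vehicle 4 h library 1 (0.07, adjusted p = 0.152). At 8 h it lost it without any 1 FGF6 library of 4 or 24 h, library 2 of either 8 h group, or vehicle 24 h library 2 or 3. *Ncoa4* lost its 8 h call in 16 of 18 such fits, the exceptions being FGF6 8 h library 1 and vehicle 24 h library 1, and its 24 h call without library 2 or 3 of either 24 h group. *Ireb2* at 8 h lost its call without library 1 or 2 of vehicle 8 h or library 1 or 3 of FGF6 8 h. *Steap3* at 24 h, not called, ranged from −0.05 to 0.02, the latter without FGF6 24 h library 1.

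Same-numbered libraries did not visibly deviate together (correlations −0.113 to 0.106), and the main fit did not pair them. Such correlations cannot exclude a small effect shared by libraries of the same number. With the replicate block, 8, 8 and 8 members and 52, 56 and 59 listed genes were called at 4, 8 and 24 h. The main fit called 62.8%, 70.8% and 73.8% of all genes at these times. For the changes of effect 6 and 6 members were called with the block, and 5 and 5 for vehicle. At few reads, such as *Scara5* under FGF6, depth limits the size of the fall and not its direction.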
